A study of Solanum lycopersicum with 2 samples.

Results

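A set of 10 genes commonly used as references in tomato expression studies were compared between an anther and a young-leaf library. They were chosen by identifier from a fixed list of 10, all 10 were listed in both libraries, and they were 10 of 25923 genes listed in either. The study profiled tomato (Solanum lycopersicum), cultivar Moneymaker, by MACE (massive analysis of cDNA ends), in which mRNA is captured by its poly-A tail and tags near the 3' end are sequenced, so that 1 transcript is meant to give 1 read whatever its length. Both tissues came from untreated glasshouse plants 8 weeks old, with 1 library of anthers that mixed developmental stages and 1 of young leaves. The labels name no genotype other than the cultivar, and do not say how many plants were pooled.

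A reference gene is one whose transcript is assumed to be even across samples, so that other transcripts can be measured against it in quantitative PCR. The genes fall into 2 sets of 5. The first, called trafficking and signalling here, holds genes of those roles and 1 of unknown function, all with modest levels. CAC encodes the medium subunit of a clathrin adaptor complex, which selects cargo for vesicles. SAND belongs to the family of the yeast protein Mon1, which acts in transport to the vacuole. TIP41 is named after a yeast protein of the TOR (target of rapamycin) nutrient-signalling pathway that bears on protein phosphatases. PP2Acs encodes a catalytic subunit of protein phosphatase 2A, and Expressed a protein of unknown function. The second holds long-used housekeeping genes: EF1a encodes the translation elongation factor that delivers aminoacyl-tRNA to the ribosome, UBI3 a ubiquitin fused to a ribosomal protein, GAPDH a glycolytic enzyme, and 2 actin genes cytoskeletal actin.

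The names belong to the list of identifiers, since the files carry identifiers alone. Of the names, CAC, UBI3 and GAPDH occur in a RefSeq gene table (assembly SLM_r2.1) on the chromosome of the identifier (8, 1 and 5). A further GAPDH gene is listed there on chromosome 3. The name actin occurs there on chromosome 4, whereas the actin identifiers carry chromosomes 3 and 11. The names TIP41, SAND, Expressed, PP2Acs and EF1a were not found there. No identifier of the files could be matched to that table, so the tissues were not checked against marker genes. The anther library held 12411606 mapped reads and the leaf library 11534512, and 69.2% and 72.5% of them lay on listed genes. Levels are given in RPM, reads per 1000000 mapped reads, with 95% exact Poisson intervals that cover counting error only. Each tissue has a single library, so no replicate error can be given and no test was run. In whole tissue a smaller share of cells with a transcript cannot be told apart from less of it per cell.

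In RPM all 10 reference genes were higher in anther than in leaf, against 56.0% of the 17137 tested genes (those averaging at least 1 RPM over both libraries). With libraries scaled by the trimmed mean of M values (TMM) 7 of 10 were higher in anther. The share over all tested genes was not counted with that scaling, but their median log2 ratio was then 0.03. In RPM UBI3 stood 2.99-fold and EF1a 2.06-fold higher, while TIP41 and the 2 actin genes were at most 1.07-fold higher. Only UBI3 and EF1a reached a log2 ratio of 1, computed with 1 RPM added to both levels, which is called at least 2-fold here. That is 2 of 10 genes (1 of 10, UBI3, with TMM), and none was at least 2-fold higher in leaf, against 39.1% of all tested genes at least 2-fold apart (21.5% higher in anther and 17.5% higher in leaf). With TMM 38.8% of all tested genes were at least 2-fold apart. The median log2 ratio of the 10 genes was 0.48 with a range from 0.07 to 1.57, beside a median of 0.15 and quartiles of -0.59 and 0.84 over all tested genes. Of the 10, 7 lay above the median of all genes, and TIP41 and both actin genes lay below it, by 0.05 to 0.08 log2 units. TMM scaling moved the median of all genes from 0.15 to 0.03, and the log2 ratios of TIP41 and both actins then became -0.07, -0.04 and -0.04.

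UBI3 (Solyc01g056940, chromosome 1) had 654 RPM in anther (640 to 668) and 219 RPM in leaf (210 to 228), from 8115 and 2525 reads. The intervals were far apart, and the ratio of 2.99 had a counting interval of 2.86 to 3.12. It was the 100th most abundant gene of the anther library and the 442nd of the leaf library. EF1a (Solyc06g005060, chromosome 6) had 642 RPM in anther (628 to 656) and 312 RPM in leaf (302 to 322). Its ratio of 2.06 had an interval of 1.98 to 2.14, which spans 2, and its log2 ratio of 1.04 became 0.90 with TMM scaling. Both of these genes encode parts of the translation machinery, with UBI3 also a source of ubiquitin.

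GAPDH (Solyc05g014470, chromosome 5) was the most abundant of the 10 in both libraries, with 838 RPM in anther (822 to 854) and 571 RPM in leaf (557 to 585). The ratio was 1.47 (1.42 to 1.51), so it lay between EF1a and the actins. The actin gene Solyc03g078400 on chromosome 3 had 411 RPM in anther (400 to 422) and 383 RPM in leaf (371 to 394), a ratio of 1.07 (1.03 to 1.12). The actin gene Solyc11g005330 on chromosome 11 had 12.7 RPM in anther (10.8 to 14.9) and 11.9 RPM in leaf (10.1 to 14.1), with the same rounded ratio of 1.07 and a wider interval (0.84 to 1.35). The 2 actin genes thus differed 32.3-fold in level within anther and 32.1-fold within leaf, with almost equal anther-to-leaf ratios.

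CAC (Solyc08g006960, chromosome 8) was the most abundant gene of the trafficking and signalling set, at 48.3 RPM in anther (44.6 to 52.4) and 35.1 RPM in leaf (31.7 to 38.6), and its ratio was 1.38 (1.21 to 1.57). PP2Acs (Solyc05g006590, chromosome 5) had 32.4 RPM in anther (29.3 to 35.7) and 21.9 RPM in leaf (19.2 to 24.7), a ratio of 1.48 (1.26 to 1.74). For both genes the intervals of the tissues did not overlap. SAND (Solyc03g115810, chromosome 3) had 20.5 RPM in anther (18.1 to 23.2) and 15.8 RPM in leaf (13.6 to 18.2), a ratio of 1.30 (1.07 to 1.58), and its 2 intervals overlapped slightly.

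TIP41 (Solyc10g049850, chromosome 10) was the gene nearest to an equal RPM, with 28.7 RPM in anther (25.8 to 31.8) and 27.3 RPM in leaf (24.4 to 30.5). Its ratio of 1.05 had an interval of 0.90 to 1.23. With TMM scaling both actins, at log2 ratios of -0.04, lay nearer to 0 than TIP41 at -0.07. Expressed (Solyc07g025390, chromosome 7) was the least abundant of the 10, with 5.88 RPM in anther (4.61 to 7.40) and 3.84 RPM in leaf (2.77 to 5.12), from 73 and 44.3 reads. Its ratio of 1.53 had the widest interval of the 10, from 1.05 to 2.30, which holds both a nearly equal level and a difference above 2-fold. Over the 10 genes, the counting interval of the ratio lay wholly above 1 for 8, against 41.7% of all tested genes. With TMM scaling it did so for 5 (UBI3, EF1a, GAPDH, PP2Acs and CAC), against 36.8%. In RPM it held 1 for TIP41 and the actin Solyc11g005330, against 26.6%. Whether an interval leaves out 1 depends on the reads of a gene, and these shares over all tested genes were not matched for level.

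**Figure D1:**
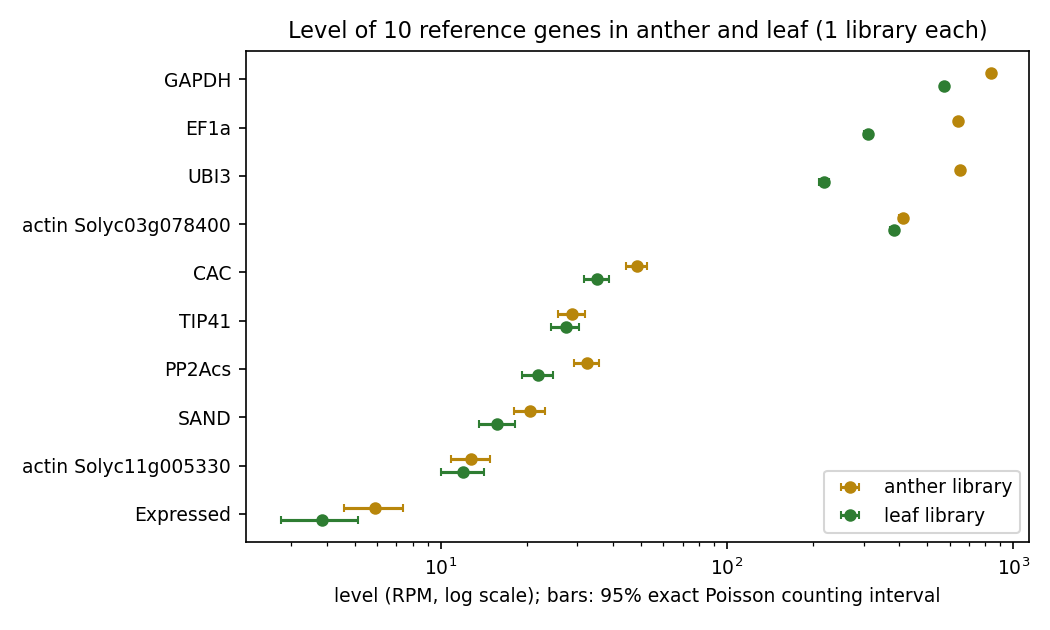
Level of each reference gene in RPM (horizontal log axis) in the anther and the leaf library, 1 library each, with bars for the 95% exact Poisson counting interval. The anther point lies to the right of the leaf point for all 10 genes, by 2.99-fold for UBI3 and by 1.05-fold for TIP41. Of all tested genes 56.0% were higher in anther in RPM. With TMM scaling 7 of the 10 were higher in anther. The share over all tested genes was not counted with that scaling, but their median log2 ratio was then 0.03.

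**Figure D2:**
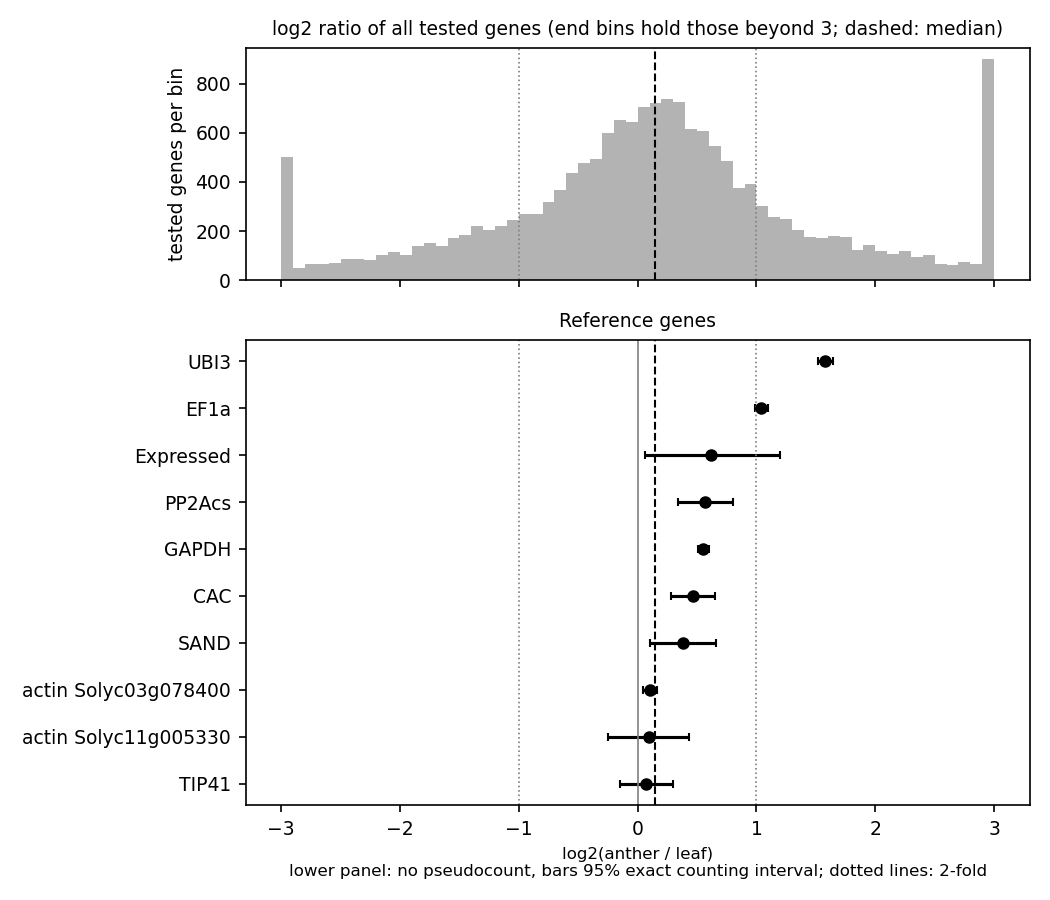
Upper panel, number of tested genes per bin of log2 anther-to-leaf ratio with 1 RPM added (horizontal axis); lower panel, the same ratio of the 10 reference genes without added RPM, with 95% counting intervals. UBI3 and EF1a stand to the right of the others, and TIP41 and the 2 actin genes lie left of the dashed median of all genes.

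The reference genes covered a wide range of levels. GAPDH was 142-fold (113 to 182) more abundant than Expressed in anther and 149-fold (111 to 206) in leaf. The 4 genes GAPDH, EF1a, UBI3 and the actin Solyc03g078400 lay in the top 2% of listed genes of both libraries, with at least 98.1% of the listed genes below them. A gap of 8.50-fold in anther (7.81 to 9.26) and 6.24-fold in leaf (5.62 to 6.96) separated them from CAC, the next gene. Expressed lay near the middle, above 54.3% of the genes listed for anther and 48.1% of those for leaf.

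The order of the levels differed between the tissues within each group. In the anther library it ran from GAPDH through UBI3, EF1a and the actin Solyc03g078400 to CAC, PP2Acs, TIP41, SAND, the actin Solyc11g005330 and Expressed. The neighbours UBI3 and EF1a did not differ there beyond counting error (ratio 1.02, 0.99 to 1.05), nor did PP2Acs and TIP41 (1.13, 0.98 to 1.31). In the leaf library UBI3 came last of the 4 abundant genes, behind the actin and EF1a, and TIP41 came before PP2Acs. All 9 neighbouring pairs of the leaf order had intervals that left out 1, the closest to it being SAND over the actin Solyc11g005330 (1.32, 1.05 to 1.66). Together the 10 genes had 2693 RPM in anther and 1601 RPM in leaf, or 0.389% and 0.221% of the reads on listed genes. The 5 trafficking and signalling genes gave 136 and 104 RPM of these sums.

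The share of genes at least 2-fold apart was higher among the most abundant genes. It was 39.1% of all tested genes, 38.6% of the 9289 that averaged at least 10 RPM and 55.6% of the 1248 that averaged at least 100 RPM. The share also depends on the 1 RPM added to both levels. Over all tested genes it was 44.1% with 0.1 RPM added and 24.7% with 5 RPM. GAPDH had 211 tested genes within 2-fold of its mean level, of which 71.1% were at least 2-fold apart and 15.2% had a log2 ratio closer to 0 than its own 0.55. For the actin Solyc03g078400, 60.3% of 481 genes of like level were at least 2-fold apart and 3.95% were closer to 0. For TIP41, 35.1% of 5476 genes of like level were at least 2-fold apart and 6.04% were closer to 0, and the actin Solyc11g005330 had 7.73% of 6110 closer. CAC, SAND, Expressed, PP2Acs and EF1a had 30.3% to 43.1% of the genes of like level closer to 0, and UBI3 had 57.7% of 423. Genes that matched a member in level within 2-fold and in log2 ratio within 0.1 numbered 8 for GAPDH, 20 for UBI3, 21 each for EF1a and the actin Solyc03g078400, and 338 to 567 for the 6 less abundant genes. They are not named, since the files give no gene names.

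Differences between 2 reference genes do not depend on library size, because the mapped reads cancel in the ratio of their ratios. Over all 45 pairs, 7 were at least 2-fold apart in their anther-to-leaf ratio, and each of these held UBI3. In 3 of the 7, those of UBI3 with TIP41 and with the 2 actin genes, the whole 95% exact interval lay above 2. The widest was UBI3 against TIP41, at 2.85-fold (2.42 to 3.34). In 21 pairs the interval held 1, and in 31 it lay wholly below 2, so that a difference of 2-fold was outside the counting error.

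The genes could be read from the pairs as 3 groups with close ratios, chosen after the values were seen. TIP41 and the 2 actins were within 0.03 log2 units of each other, with an interval from 0.87 to 1.20 for the ratio of the actin Solyc03g078400 to TIP41. GAPDH, PP2Acs, CAC, SAND and Expressed were within 0.24 log2 units of each other, and the intervals of all their pairs held 1. GAPDH and PP2Acs, which differ widely in level, had a ratio of ratios of 1.01 (0.86 to 1.19). EF1a and UBI3 formed the last group but were apart from each other by 1.45-fold (1.37 to 1.54). At this depth SAND was not separable from the first group either, since its interval against the actin Solyc03g078400 (0.99 to 1.48) and against TIP41 (0.97 to 1.59) held 1. Expressed, with the fewest reads, had an interval that held 1 against 8 of its 9 partners, all but UBI3, which is a matter of its width and does not show equal ratios.

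Within the trafficking and signalling set, 0 of 10 pairs were at least 2-fold apart, 8 of 10 intervals held 1 and the median log2 difference was 0.21. Within the housekeeping set, 3 of 10 pairs were at least 2-fold apart, 1 of 10 intervals held 1 and the median log2 difference was 0.74. All 3 of these pairs held UBI3. The 10 pairs of a set are made from 5 genes and are not independent, so the counts do not describe the sets as classes. Housekeeping genes other than the actin Solyc11g005330 have more reads and therefore narrower intervals, so the counts of intervals are not comparable between the sets. The mean log2 difference of a gene to the other 9 was lowest for GAPDH and CAC (0.36 each) and PP2Acs (0.36), followed by SAND (0.38) and Expressed (0.39). It was 0.50 and 0.51 for the actins, 0.53 for TIP41, 0.67 for EF1a and 1.15 for UBI3. By nearness to an equal RPM, TIP41 and the actins came first, and by nearness to the other reference genes GAPDH, CAC and PP2Acs did. The second order favours, by arithmetic, the genes in the middle of the 10 ratios, so it restates the order of the ratios.

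**Figure D3:**
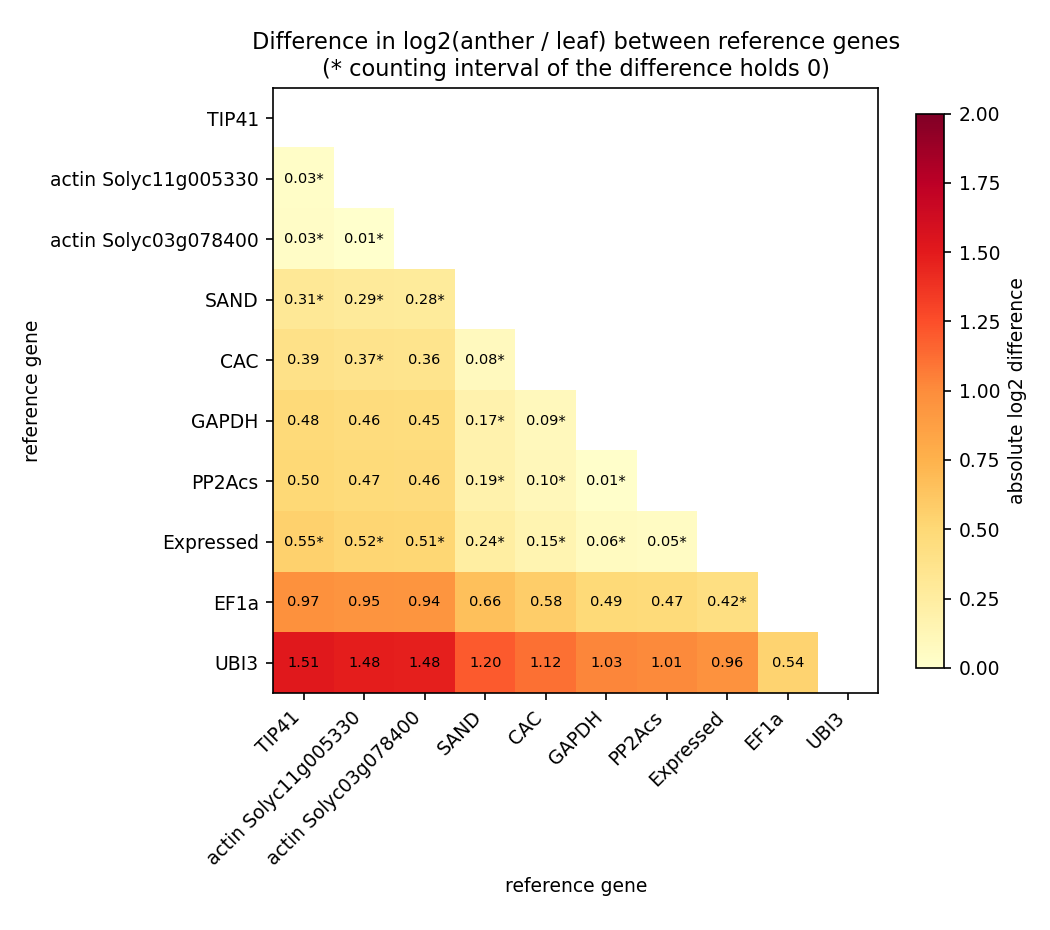
Absolute difference in log2 anther-to-leaf ratio between each pair of the 10 reference genes (both axes, ordered by ratio), with a star where the 95% exact counting interval of the difference holds 0. The bottom row, UBI3, holds the 7 pairs at or above 1, up to 1.51 against TIP41.

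The comparison of the tissues over all genes was recomputed with each reference gene set equal in the 2 libraries. With mapped reads as the scale, 3690 of 17137 genes were at least 2-fold higher in anther and 3006 in leaf, so 55.1% of the calls were towards the anther. Scaled to TIP41 these were 3507 and 3165 genes (52.6% towards the anther), scaled to the actin Solyc03g078400 3422 and 3250 (51.3%), and scaled to the actin Solyc11g005330 3446 and 3239 (51.5%). With TMM the balance was even at 3330 and 3331 genes. The balance with these 3 references turned towards the leaf at higher levels. Among genes averaging at least 10 RPM the share towards the anther was 46.8% with TIP41, 45.3% with the actin Solyc03g078400, 45.6% with the actin Solyc11g005330 and 49.8% with mapped reads. With a pseudocount of 5 it was 50.5%, 49.2%, 49.5% and 53.4%.

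With the other 7 references the balance lay towards the leaf. SAND gave 2858 genes higher in anther and 3941 in leaf, CAC 2730 and 4237, and GAPDH 2601 and 4574. PP2Acs and Expressed gave 35.8% and 34.4% of calls towards the anther. EF1a gave 2115 and 6894 genes, and UBI3 gave 1704 and 10107, or 14.4% of calls towards the anther. Between TIP41 and UBI3 as the reference, 1803 genes were called higher in anther with TIP41 alone, 6942 were called higher in leaf with UBI3 alone, and 1704 and 3165 were called with both.

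Averages of several reference genes lay between these values. The geometric mean of the 5 trafficking and signalling genes was 1.34-fold higher in anther and gave 2790 and 4069 calls, and that of the 5 housekeeping genes was 1.60-fold higher and gave 2460 and 5027 calls. The mean of all 10 was 1.46-fold higher and gave 2606 and 4548 calls, and without UBI3 it was 1.35-fold higher and gave 2771 and 4114.

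**Figure D4:**
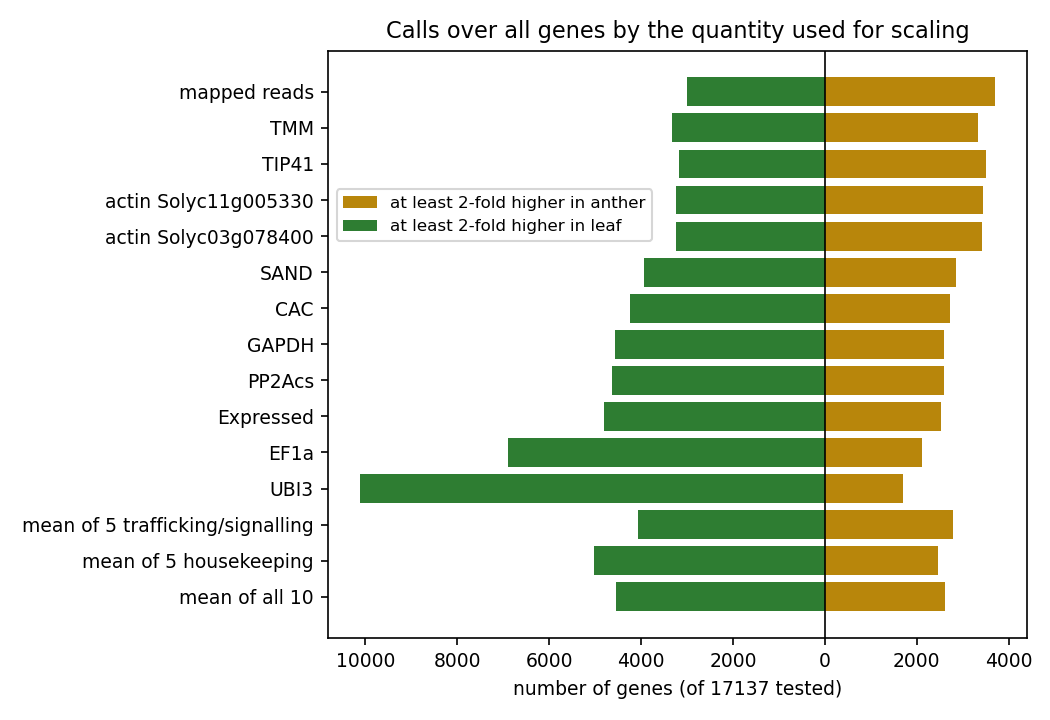
Number of the 17137 tested genes past 2-fold towards anther (right of 0) or towards leaf (left of 0), for each quantity that was set equal in the 2 libraries (rows). The left bar grows from 3006 genes with mapped reads to 10107 genes with UBI3.

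The files also give the height of the highest read peak of each gene, which divided by its reads is called the peak share. For the 7827 genes that had 100 reads or more in each library, the median share was 25.1% in each library and the median difference between the libraries was 1.97 percentage points. The set held 9 of the reference genes, all but Expressed, and 8 of the 9 differed by less than that median. The median includes genes with as few as 100 reads, and the reference genes were not compared with genes of like read number. UBI3 had 24.4% in both libraries and GAPDH 25.6% in anther and 25.8% in leaf, although their levels differed between the tissues. EF1a had 23.4% and 24.1%.

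The peak share differed more between the genes than between the tissues. It was highest for the actin Solyc11g005330, at 54.4% in anther and 50.9% in leaf, a difference of 3.52 points. TIP41 followed with 41.9% and 43.4% and CAC with 39.0% and 37.8%. PP2Acs had the lowest shares, 21.6% and 21.0%. Expressed had 37.0% in anther and 27.1% in leaf, from peaks of 27 and 12, which rest on too few reads to be set beside the rest.

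**Figure D5:**
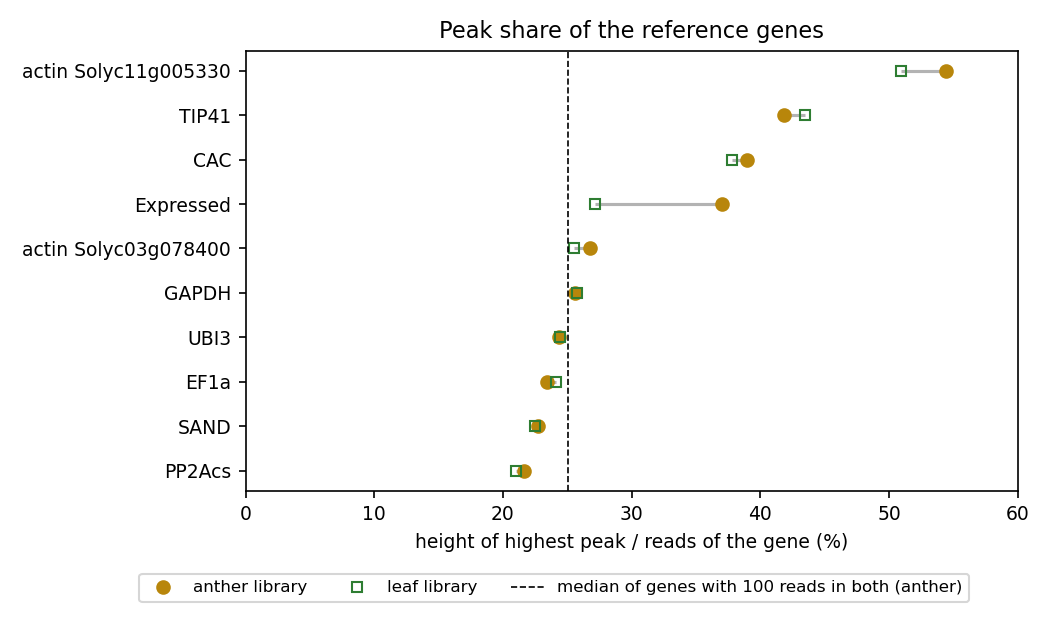
Height of the highest read peak divided by the reads of the gene (horizontal axis, percent) for the 10 reference genes in the anther and leaf libraries, with a dashed line at the median of 7827 genes. Points of the 2 libraries lie close together for each gene except Expressed, at 37.0% and 27.1%.

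Fractional counts, taken here as reads shared among several places, touched most of these genes in the leaf library. The count was fractional in anther for 3 of the 10 (EF1a, GAPDH and PP2Acs), against 20.8% of the genes listed there. In leaf it was fractional for 8, against 19.5% of the genes listed there. SAND alone was whole in both, so 9 of 10 had a fraction in either library, against 25.9% of tested genes. Actin, ubiquitin, elongation factor and GAPDH genes belong to families with similar copies in plants. Whether similar copies account for the fractions was not tested. The files do not give the number of shared reads, and their part in the levels was not tested.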

How the data were processed

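MACE libraries of anthers and young leaves, 1 each, were used. The labels give capture of poly-A mRNA and sequencing near the 3' end, and the submitters' processing notes name FastQC alone, with no version. Aligner, counter, build and annotation: not given in the sources used here. Estimated counts, deposited by the authors, are reads per gene, whole within 1e-06 for most genes and fractional for 20.8% (anther) and 19.5% (leaf). The RPM values deposited by the authors are named transcripts per 1000000 in the headers, but equalled reads divided by mapped reads times 1000000, with no length correction. The peak height is a signal deposited by the authors without a stated computation. All files' other columns served as identifiers.

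Genes listed in 1 file were taken as 0 in the other. Ratios are log2((anther RPM + 1) / (leaf RPM + 1)) for genes averaging at least 1 RPM; folds of single genes hold no pseudocount. Counts were rounded for 95% exact intervals: Poisson for levels, conditional Clopper-Pearson for ratios, conditional odds ratio for pairs. They cover counting error only. One read is 0.0806 RPM in the anther and 0.0867 RPM in the leaf library. When a reference gene set the scale, both libraries were moved by equal and opposite log2 amounts and the tested genes were kept. All 10 genes are named by rule, and all 10 passed the filter. The members and lists were chosen with earlier results of these data known. Computations were tested on simulated data. Tools were Python 3.11.15, scipy 1.17.1 and, for TMM factors, edgeR 4.0.16; no edgeR test was run.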

Additional observations from a re-analysis of the deposited data

How the results depend on the processing

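The count of 2 reference genes at least 2-fold apart became 1 with the median ratio set to 1, 1 with TMM and 1 without the 50 genes of highest mean, since EF1a lies close to the threshold. It became 5 at a log2 threshold of 0.5, where 62.8% of all tested genes passed, and 0 at a threshold of 2, where 17.1% passed. It became 0 among whole-number genes (39.0% of all), where SAND alone remained and no range could be computed. It was 2 in the other 5 settings. The range of log2 ratios, 1.51, lay between 1.50 and 1.51 in the other planned settings, and in an alternative chosen after seeing the data it was 0.97 without UBI3 and 0.49 without UBI3 and EF1a. The range is the log2 ratio of UBI3 less that of TIP41, so the scale of the libraries nearly cancels in it. Filters and thresholds leave both genes as they were. Its small change in the planned settings thus follows by construction and does not bear on how stable the spread is. The median of 0.48 lay between 0.35 and 0.56 over the planned settings. With the median ratio set to 1 or with TMM 7 of the 10 log2 ratios were above 0, and without the 50 genes of highest mean 9 were. The share of all tested genes above 0 was not counted in these settings. Of 100 values of single genes under other settings, 85 stayed inside the counting interval of the gene, and the 15 others were of EF1a, GAPDH, UBI3 and the actin Solyc03g078400, which have the narrowest intervals. Settings that change only the filter or the threshold leave the ratio of a gene as it was. Their values are among the 85 by construction and do not bear on how stable the ratios are. The 7154 genes called with the mean of all 10 as the scale became 4531 with a pseudocount of 5 and 3871 when only genes averaging at least 10 RPM were tested. The 7 pairs at least 2-fold apart became 8 with a pseudocount of 5. No paired analysis was possible because there was a single library of anther and of leaf, and no replicate could be left out. Depth limits Expressed, with 73 and 44.3 reads.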

Other observations

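The nearest tested genes by identifier number, at most 20 numbers away on either side, were listed for 8 of the 10 reference genes, 13 neighbours in all; TIP41 and UBI3 had none. Of the 13, 8 were at least 2-fold apart between the tissues (3 higher in anther and 5 higher in leaf), beside 39.1% of all tested genes. The neighbour after SAND had 111 RPM in anther and 849 RPM in leaf, a log2 ratio of -2.93, while SAND itself had 0.36. The neighbours of the actin Solyc11g005330 had log2 ratios of -1.55 (0.524 RPM in anther, 3.47 in leaf) and -2.90 (2.50 and 25.1) beside its own 0.09. Those of CAC had 1.68 (5.56 and 1.04 RPM) and -2.13 (0.322 and 4.77) beside its own 0.45. The neighbour after the actin Solyc03g078400 had 4.17 (17.0 and 0 RPM) and the one before Expressed 2.58 (14.3 and 1.56). The one after EF1a had -1.13 (1.13 and 3.64). Levels below 1 RPM rest on few reads. The neighbours less than 2-fold apart were those of PP2Acs (0.09 and -0.84), the one after Expressed (-0.30), the one after GAPDH (0.30) and the one before the actin Solyc03g078400 (-0.05). The sources used here do not say whether reads were counted by strand.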
